A study of Rattus norvegicus with 18 samples.

Results

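The 6 measured genes of the smooth muscle contractile apparatus were followed in bone marrow mesenchymal stromal cells (MSCs) of aged and young rats through long-term culture. They were taken by symbol from the array annotation: of 10 genes sought, 6 had a probe (Actg2, Cnn1, Myl9, Tpm1, Des and Smtn, 1 probe each), among 12964 named genes on the array, and all 6 entered the tests. Acta2, Tagln, Myh11 and Tpm2, the other 4, were not analysed here. MSCs were isolated from the marrow of male Sprague Dawley rats and selected by plastic adherence. The aged donors were 12 months old (aMSCs) and the young donors 3 weeks old (yMSCs), and total RNA of each was hybridised to RatRef-12 BeadChips at passage 2 (P2), passage 30 (P30) and passage 100 (P100), with 3 arrays in each of the 6 groups. None of the groups had a genetic change or a treatment. The methods and labels do not say how the 3 arrays of a group were drawn, and the long-term cells are described as a pair of cultures, apparently a single line for each donor age. The p-values below therefore measure the spread between arrays, which may be technical, and in the later passages donor age and culture line cannot be told apart, in the interaction terms as well.

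Smooth muscle contracts when myosin, switched on by phosphorylation of its regulatory light chain, pulls on actin filaments that carry tropomyosin and calponin and are anchored in dense bodies linked by desmin. Many of these genes are switched on together by serum response factor (SRF), which binds the CArG box, with its partners myocardin and the myocardin-related factors. Cultured stromal cells and myofibroblasts also use part of this set in their stress fibres, so its presence in MSCs does not make them muscle cells.

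The members sit on 5 chromosomes of the GRCr8 build. Actg2, which encodes the gamma actin of visceral smooth muscle, lies at chr4:117579513-117604379. Cnn1 (chr8:28908437-28917099) encodes calponin, an actin-binding protein of smooth muscle that slows myosin. Myl9 (chr3:165742020-165748409) encodes a regulatory light chain of smooth muscle and non-muscle myosin. Tpm1 (chr8:76516654-76543661) encodes a tropomyosin with muscle and non-muscle splice forms, Des (chr9:84299626-84307344) the muscle intermediate filament protein desmin, and Smtn (chr14:82622223-82644525) smoothelin, a protein of actin stress fibres. The position of each probe along its transcript was not analysed here, so neither splice forms nor cross-hybridisation of the Actg2 probe with other actin transcripts could be checked.

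The 250 bases before the RefSeq start of 3 members are shown because these genes took different courses, and those of Acta1, the skeletal muscle actin gene, because its signal ran close to that of Cnn1. They are written 5′ to 3′ on the gene's own strand in lower case. Capitals mark a match, on either strand, to the CArG box or to CATTCC, the core of the element bound by TEAD factors.
Actg2, chr4:117594040-117594289, minus strand: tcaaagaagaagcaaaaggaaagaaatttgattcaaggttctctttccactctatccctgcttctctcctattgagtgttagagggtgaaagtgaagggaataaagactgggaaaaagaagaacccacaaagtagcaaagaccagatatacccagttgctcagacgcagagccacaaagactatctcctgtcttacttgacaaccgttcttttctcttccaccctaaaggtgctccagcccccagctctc
Cnn1, chr8:28908187-28908436, plus strand: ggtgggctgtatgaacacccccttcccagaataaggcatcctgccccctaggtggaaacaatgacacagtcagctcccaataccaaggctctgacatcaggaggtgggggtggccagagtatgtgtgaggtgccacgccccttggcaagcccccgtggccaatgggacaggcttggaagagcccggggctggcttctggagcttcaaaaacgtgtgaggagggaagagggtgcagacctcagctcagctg
Tpm1, chr8:76543416-76543665, minus strand: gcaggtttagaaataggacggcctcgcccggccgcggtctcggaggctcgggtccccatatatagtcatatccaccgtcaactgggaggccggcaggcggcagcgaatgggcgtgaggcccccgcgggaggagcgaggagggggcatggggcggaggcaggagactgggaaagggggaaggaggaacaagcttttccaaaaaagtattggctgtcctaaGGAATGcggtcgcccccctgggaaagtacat
Acta1, chr19:68784195-68784444, minus strand: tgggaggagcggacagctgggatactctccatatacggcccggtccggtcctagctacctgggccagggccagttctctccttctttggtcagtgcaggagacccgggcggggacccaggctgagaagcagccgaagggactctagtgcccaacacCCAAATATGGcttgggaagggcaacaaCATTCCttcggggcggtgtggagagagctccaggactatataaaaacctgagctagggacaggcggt
Of the 5 members with a window in the table (all but Myl9), 0 held a CArG box in these 250 bases and 1, Tpm1, held CATTCC, read on the other strand 31 bases before the start. Among all 33469 RefSeq windows of this length, 501 (1.5%) held a CArG box and 4037 (12.1%) held CATTCC. The Acta1 window held both, at 94 and 67 bases before the start. The starts listed for Actg2 and Tpm1 lie inside the span of the gene, so that the Actg2 window lies within the gene and all but the outermost bases of the Tpm1 window do. A match is a run of letters only, and its absence says only that these letters are not in this window.

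The arrays differed in background between passages. The median intensity of probes that were not detected was 31.3 to 34.7 on the 6 P2 arrays and 51.6 to 56.2 on the 12 later arrays, and 7593 to 9157 of the 22226 probes were detected per array. Passage and array background therefore cannot be told apart in any comparison with P2, whereas P30 and P100 arrays were close in this respect, though not the same: in aMSCs it was 51.6 to 52.5 at P100, with 8218 to 9157 probes detected, against 53.3 to 54.7 at P30, with 7648 to 7951 detected. Of 9 MSC markers on the array, 7, 7 and 8 were detected in aMSCs at P2, P30 and P100, and 7, 7 and 6 in yMSCs. Of 6 endothelial markers, Tie1 alone was detected in each group. Macrophage markers were present early: 3 of 9 were detected in aMSCs P2 and 6 of 9 in yMSCs P2, against Cd14 alone in each later group.

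Actg2 had the widest range of the members and fell at each step of culture. Its signal is given as log2 of the background-corrected, normalised intensity. On the 3 arrays of aMSCs it was 13.33, 14.01 and 13.88 at P2, then 11.90, 11.98 and 11.79 at P30, and 9.70, 8.90 and 9.48 at P100. On those of yMSCs it was 12.96, 14.05 and 14.14 at P2, 10.13, 10.82 and 10.95 at P30, and 7.79, 8.11 and 7.83 at P100. Within each donor age the passages did not overlap, and from P30 on all aMSCs arrays lay above all yMSCs arrays of the same passage. Mean scanner intensity was 709 ± 160 in aMSCs P100, against 13372 ± 1753 in aMSCs P2, and 260 ± 13.3 in yMSCs P100, against 13088 ± 3461 in yMSCs P2 (SD, n = 3 each).

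**Figure D1:**
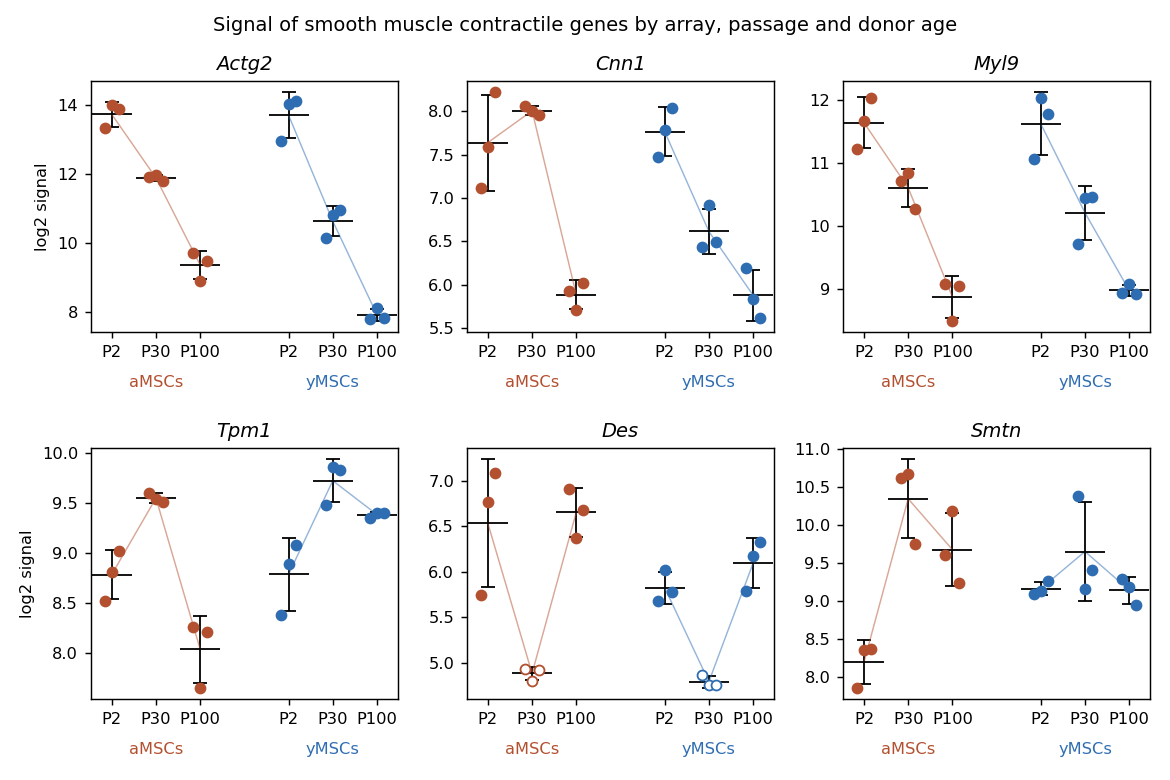
Log2 signal (vertical axis) of the 6 measured smooth muscle contractile genes on each of 18 arrays, by passage, with aMSCs in red and yMSCs in blue. Points are arrays (open: not detected at p of at most 0.01), bars are the mean and SD of 3 arrays; Actg2 and Myl9 step down with passage in both donor ages, while Des is open at P30 only.

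The fall of Actg2 to P100 amounted to 20.9-fold in aMSCs (log2 −4.38, SE 0.29, adjusted p = 3.65e-09) and 55.9-fold in yMSCs (log2 −5.80, SE 0.29, adjusted p = 8.18e-11) by limma across 9531 genes. Among all genes tested it was the 38th and the 21st largest fall. A gene was called when its adjusted p was under 0.05 and its change at least 1.5-fold. By P30 Actg2 had fallen 3.60-fold in aMSCs (adjusted p = 8.69e-05) and 8.47-fold in yMSCs (adjusted p = 4.26e-07). From P30 to P100, where the backgrounds were closer, it fell a further 5.79-fold in aMSCs (adjusted p = 5.22e-06) and 6.59-fold in yMSCs (adjusted p = 5.17e-06).

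Myl9 fell in the same stepwise way, and no difference between donor ages was called. In aMSCs it stood at 11.22, 11.66 and 12.03 at P2, 10.70, 10.84 and 10.26 at P30 and 9.08, 8.49 and 9.04 at P100. In yMSCs it stood at 11.06, 12.02 and 11.77 at P2, 9.71, 10.44 and 10.46 at P30 and 8.94, 9.07 and 8.92 at P100. Passages were again separate within each donor age. Between P2 and P100 it fell 6.81-fold in aMSCs (log2 −2.77, SE 0.27, adjusted p = 3.92e-07) and 6.26-fold in yMSCs (log2 −2.65, SE 0.27, adjusted p = 5.49e-07). The fall from P30 to P100 was 3.32-fold in aMSCs (adjusted p = 0.000119) and 2.35-fold in yMSCs (adjusted p = 0.00623).

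Cnn1 fell in both donor ages by P100, but by P30 a fall was called in yMSCs only. In aMSCs it was 7.11, 7.59 and 8.22 at P2, 8.06, 8.00 and 7.96 at P30 and 5.93, 5.70 and 6.03 at P100. In yMSCs it was 7.47, 7.79 and 8.04 at P2, 6.44, 6.92 and 6.49 at P30 and 6.20, 5.83 and 5.61 at P100. Arrays of aMSCs P30 thus lay within the P2 range, and those of yMSCs below it. In aMSCs the change to P30 was 0.37 on the log2 scale (SE 0.23, adjusted p = 0.205), which passed the test without array 3 of P2 (0.66, adjusted p = 0.0216), and the fall from P30 to P100 was 4.34-fold (log2 −2.12, SE 0.23, adjusted p = 3.00e-06). In yMSCs it had already fallen 2.22-fold by P30 (log2 −1.15, SE 0.23, adjusted p = 0.000874), and the further change to P100 of −0.74 missed the test (adjusted p = 0.0617), though not without yMSCs P100 array 1 (−0.89, adjusted p = 0.0481) or, through the shared estimate of the spread, without array 1 or 3 of aMSCs P2 (adjusted p = 0.0304 and 0.0229). The P30 to P100 change in yMSCs was also called with a floor of 16 in place of normexp background correction (−0.95, adjusted p = 0.0412) and with array weights (−0.77, adjusted p = 0.00666). Over the whole span Cnn1 fell 3.37-fold in aMSCs and 3.70-fold in yMSCs. On the values normalised by the authors these falls were 4.04-fold and 4.68-fold. At P100 Cnn1 was detected on all arrays but close to the detection limit. Its scanner intensity there was 94.7 to 101 in aMSCs and 86.2 to 105 in yMSCs, so its falls to P100 may be understated.

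Tpm1 did not follow the other filament genes. It was higher at P30 than at P2 in both donor ages, and by P100 the donor ages had parted. In aMSCs it read 8.53, 8.82 and 9.02 at P2, 9.60, 9.54 and 9.51 at P30 and 8.26, 7.66 and 8.21 at P100. In yMSCs it read 8.38, 8.90 and 9.09 at P2, 9.48, 9.86 and 9.83 at P30 and 9.36, 9.40 and 9.40 at P100. All P100 arrays of aMSCs lay below those of P2, while all P100 arrays of yMSCs lay above theirs. The rise to P30 was 1.70-fold in aMSCs (adjusted p = 0.00363) and 1.91-fold in yMSCs (adjusted p = 0.000945). From P30 to P100 Tpm1 fell 2.85-fold in aMSCs (log2 −1.51, SE 0.19, adjusted p = 1.47e-05) and changed by −0.34 in yMSCs (95% interval −0.75 to 0.07, adjusted p = 0.360). Against P2, P100 was 1.68-fold lower in aMSCs (adjusted p = 0.00439) and 1.51-fold higher in yMSCs (adjusted p = 0.0162). Both of these modest changes hung on 1 array: without aMSCs P100 array 2 the value was −0.56, short of 1.5-fold, and without yMSCs P2 array 1 it was 0.40 (adjusted p = 0.103). The rise in yMSCs also missed the test on the values normalised by the authors (0.38, adjusted p = 0.112) and with no normalization between arrays (0.35, adjusted p = 0.176).

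Des was close to the detection limit and dipped at P30. It was detected on all arrays of P2 and P100 and on none of the 6 P30 arrays. In aMSCs its signal was 5.75, 6.77 and 7.09 at P2, 4.93, 4.80 and 4.92 at P30 and 6.91, 6.37 and 6.68 at P100. In yMSCs its signal was 5.68, 6.02 and 5.78 at P2, 4.87, 4.76 and 4.75 at P30 and 5.79, 6.17 and 6.33 at P100. Since the P30 values bound the level only from above, the folds are lower bounds, set against the higher of the measured value and the lowest detected signal of each array. P30 was at least 2.17-fold lower than P2 in aMSCs (adjusted p = 6.16e-05) and at least 1.48-fold lower in yMSCs (adjusted p = 0.00352). P100 was at least 2.35-fold higher than P30 in aMSCs (adjusted p = 4.61e-05) and at least 1.78-fold higher in yMSCs (adjusted p = 0.00221). These adjusted p-values belong to the measured changes by limma, not to the bounds. For yMSCs P30 against P2 the measured change was −1.03, while the bound fell short of 1.5-fold, so that call rests on undetected values. P100 and P2 differed by 0.12 in aMSCs (95% interval −0.41 to 0.65) and by 0.27 in yMSCs (−0.27 to 0.80), neither called.

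Smtn was higher at P30 and at P100 than at P2 in aMSCs, with its highest mean at P30, and no passage difference was called in yMSCs. In aMSCs it measured 7.86, 8.36 and 8.37 at P2, 10.62, 10.68 and 9.75 at P30 and 9.61, 10.19 and 9.24 at P100. In yMSCs it measured 9.10, 9.14 and 9.26 at P2, 10.39, 9.16 and 9.41 at P30 and 9.30, 9.19 and 8.95 at P100. Arrays of aMSCs P2 were below every other array of both ages. The P30 groups were uneven, with 1 high array in yMSCs and 1 low array in aMSCs. Smtn rose 4.44-fold by P30 (log2 2.15, SE 0.30, adjusted p = 2.96e-05) and 2.79-fold by P100 (adjusted p = 0.000754) in aMSCs. In yMSCs, P30 against P2 gave 0.49 (95% interval −0.15 to 1.13) and P100 against P2 gave −0.02 (−0.66 to 0.62). In aMSCs P100 against P30 gave −0.67 (adjusted p = 0.0984), which passed the test without yMSCs P30 array 1, aMSCs P30 array 3 or aMSCs P100 array 2 (adjusted p = 0.0434, 0.0190 and 0.0406) or with array weights (−1.04, adjusted p = 6.86e-05).

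**Figure D2:**
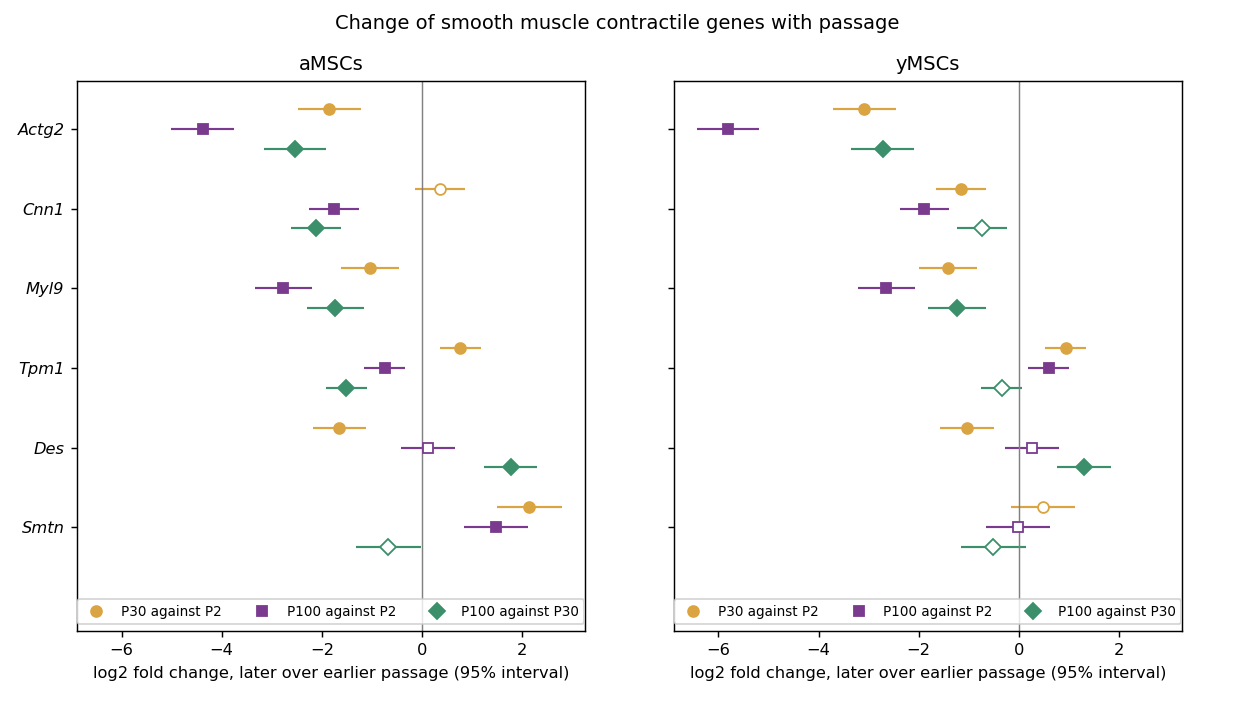
Log2 fold change between passages (horizontal axis, later over earlier, with 95% intervals) of each gene, aMSCs left and yMSCs right; filled symbols were called. Actg2 and Myl9 lie left of 0 in each comparison, and the P100 against P2 value of Tpm1 lies on opposite sides of 0 in aMSCs and yMSCs.

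The members' counts were read against those over all genes. In aMSCs P30 against P2, 2 of 6 were higher and 3 lower, where 19.3% and 20% of all genes tested were. In yMSCs the same step had 1 higher and 4 lower, against 16.4% higher and 16.4% lower of all genes. P100 against P2 had 1 higher and 4 lower in aMSCs (19.1% and 18.6% of all genes) and 1 higher and 3 lower in yMSCs (20.6% and 18.7%). P100 against P30 had 1 higher and 4 lower in aMSCs (14.2% and 12.2%) and 1 higher and 2 lower in yMSCs (3.39% and 4.50%). The median change of the members to P100 was −1.25 in aMSCs and −0.95 in yMSCs, where that of all genes tested was 0.03 and 0.06. In bulk RNA, fewer cells that express a gene and less RNA per cell cannot be told apart.

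The macrophage markers declined over the same first step as Actg2, Myl9 and, in yMSCs, Cnn1. Their summed signal was 752 to 1523 in aMSCs at P2, 318 to 395 at P30 and 562 to 647 at P100, and 1283 to 2791, 341 to 414 and 685 to 728 in yMSCs. Aif1, a macrophage protein, was at least 13.9-fold lower in yMSCs P100 than in yMSCs P2. Between P30 and P100, 8 of the 9 markers were not detected at either passage, and 1, Cd14, was called higher at P100 in each donor age. The markers also moved with donor age. Of 6 tested, 0 were higher and 4 lower in aMSCs P2 than in yMSCs P2 (median −1.34), where 1.76% and 2.29% of all genes were. In the interaction term (aMSCs minus yMSCs) 3 were called higher to P30 (median 1.48) and 3 to P100 (median 1.33). Of all genes, 5.81% and 8.16% were called higher in these terms. With 8 of the 9 markers undetected at P30 and P100, the terms largely restate the P2 difference with its sign turned. Between donor ages 0 of the 6 were called higher or lower at P30 (median 0.06) or at P100 (median 0.02). The part of macrophages in the members' results was not tested.

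At P2 the donor ages were close for most members. Of 6, 0 were called higher and 0 lower in aMSCs P2 than in yMSCs P2, where 1.76% and 2.29% of all genes were. By limma the 2 largest differences were those of Smtn and Des. Smtn stood at 8.20 ± 0.29 in aMSCs and 9.17 ± 0.09 in yMSCs (SD, n = 3 each), a log2 difference of −0.97 (SE 0.30, adjusted p = 0.0954). Des stood at 6.53 ± 0.70 and 5.83 ± 0.17, a difference of 0.71 (SE 0.25, adjusted p = 0.164). The Smtn arrays of the donor ages did not overlap, and with only these 2 groups fitted, with array weights or without yMSCs P30 array 1 it was called (adjusted p = 0.0260, 0.00131 and 0.0307). Des was called with array weights (adjusted p = 0.0328) and without aMSCs P2 array 1, its lowest (1.10, adjusted p = 0.00212). The other 4 members differed by −0.13 to 0.03 on the log2 scale. The interval for Actg2 was −0.60 to 0.65 and that for Tpm1 −0.41 to 0.41.

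At P30 Actg2 and Cnn1 were higher in aMSCs. Actg2 averaged 11.89 ± 0.09 in aMSCs and 10.63 ± 0.44 in yMSCs (SD, n = 3 each), a 2.39-fold difference (log2 1.26, SE 0.29, adjusted p = 0.00599). Cnn1 averaged 8.01 ± 0.05 in aMSCs and 6.62 ± 0.26 in yMSCs (2.62-fold, log2 1.39, SE 0.23, adjusted p = 0.000476). That made 2 of 6 higher and 0 lower, where 8.12% and 9.53% of all genes were. On arrays 1 and 2 of aMSCs P30 all members but Des read higher than on array 3. With both left out, Actg2 was 1.16 higher but no longer called (adjusted p = 0.165), on 1 array whose spread was assumed to be that of the other groups, and Cnn1 stayed called. Smtn, at 0.69 (adjusted p = 0.117), was called without yMSCs P30 array 1 (1.06, adjusted p = 0.0148) or without aMSCs P30 array 3 (0.99, adjusted p = 0.0198). Des was not detected in either group.

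At P100 Actg2 stayed higher in aMSCs and Tpm1 was lower. Actg2 averaged 9.36 ± 0.41 in aMSCs and 7.91 ± 0.18 in yMSCs (2.73-fold, log2 1.45, SE 0.29, adjusted p = 0.00164). Tpm1 averaged 8.04 ± 0.33 in aMSCs and 9.39 ± 0.03 in yMSCs (2.54-fold lower, log2 −1.35, SE 0.19, adjusted p = 6.27e-05). Both were called under each of the 29 alternative settings. With 1 higher and 1 lower of 6, the share in all genes was 10.0% and 9.03%. Cnn1, at 5.89 ± 0.17 and 5.88 ± 0.29, and Myl9, at 8.87 ± 0.33 and 8.97 ± 0.08, differed by 0.01 (95% interval −0.49 to 0.50) and −0.10 (−0.67 to 0.47). Cnn1 was close to the detection limit in both groups, where a difference would be compressed.

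The difference between the passage changes was tested directly, as an interaction term. To P30, Cnn1 (1.52, SE 0.33, adjusted p = 0.00637) and Smtn (1.66, SE 0.43, adjusted p = 0.0186) moved more upward in aMSCs than in yMSCs, 2 higher and 0 lower of 6, against 5.81% and 5.97% of all genes. Without both aMSCs P30 arrays 1 and 2 neither was called (Cnn1 1.45, adjusted p = 0.0684; Smtn 1.05, adjusted p = 0.312). Smtn was also lost without array 1 of aMSCs P2 or arrays 1 or 2 of aMSCs P30 (1.49 to 1.52, adjusted p = 0.0511 to 0.0593). Actg2, at 1.23 (adjusted p = 0.0637), missed the test, and passed it on the values normalised by the authors (1.25, adjusted p = 0.0267), with no normalization between arrays (adjusted p = 0.0281), with array weights (adjusted p = 0.0111) and without yMSCs P2 array 1 (1.62, adjusted p = 0.00788), aMSCs P30 array 3 (adjusted p = 0.0491) or aMSCs P100 array 2 (adjusted p = 0.0476). Des was called to fall further in aMSCs only without aMSCs P2 array 1 (−1.01, adjusted p = 0.0180).

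To P100, Tpm1 (−1.34, SE 0.27, adjusted p = 0.00246), Smtn (1.5, SE 0.43, adjusted p = 0.0263) and Actg2 (1.42, SE 0.42, adjusted p = 0.0300) differed, 2 higher and 1 lower of 6, against 8.16% and 5.58% of all genes. The Tpm1 difference was called under each of the 29 alternatives. Actg2 was lost without array 2 or 3 of yMSCs P2, 1 of aMSCs P2, 1 or 3 of yMSCs P100, or 1 or 3 of aMSCs P100 (1.2 to 1.38, adjusted p = 0.0531 to 0.0872). Smtn was lost without array 3 of yMSCs P2, 1 of aMSCs P2, 2 or 3 of yMSCs P100, or 2 of aMSCs P100 (1.25 to 1.52, adjusted p = 0.0509 to 0.0709). For Smtn, aMSCs minus yMSCs was −0.97 at P2 and 0.53 at P100, neither called, so much of its term comes from P2.

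**Figure D3:**
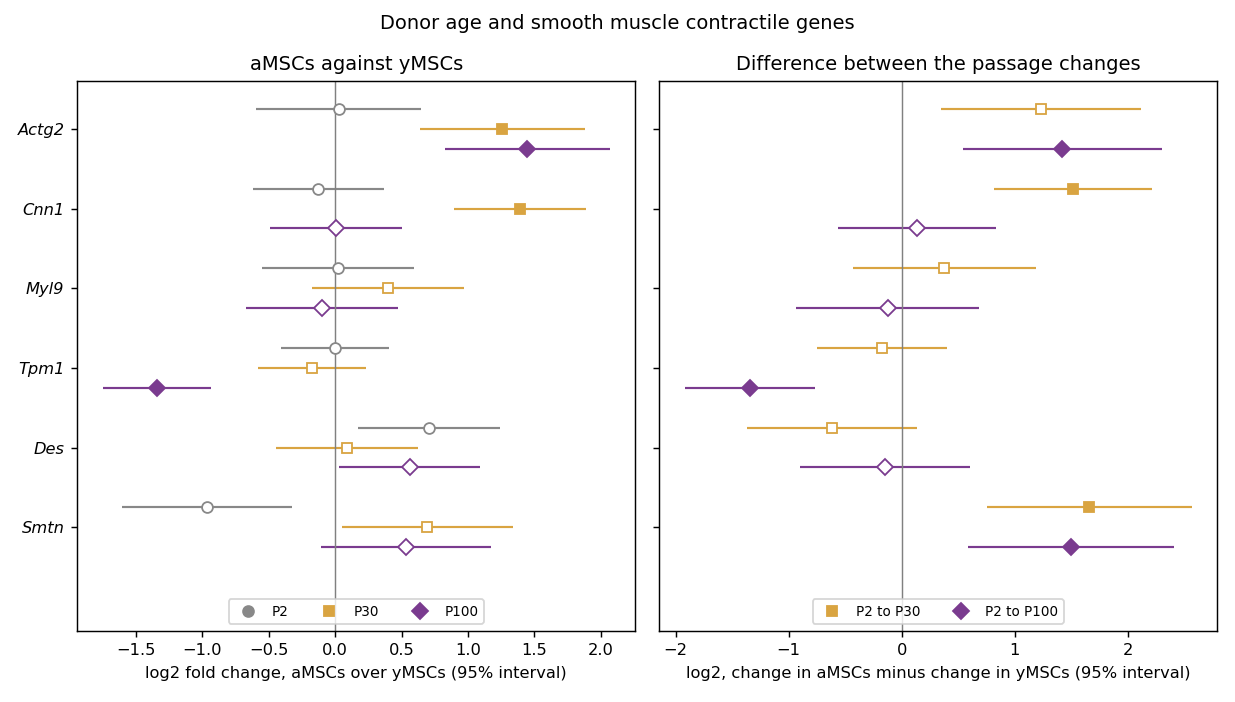
Left, log2 fold change of aMSCs over yMSCs at each passage; right, change from P2 in aMSCs minus that in yMSCs; bars are 95% intervals and filled symbols were called. Actg2 lies right of 0 at P30 and P100 and near 0 at P2, and Tpm1 lies left of 0 at P100.

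Within groups, the members often moved together. Array 1 was the lowest of its group for all 6 members in both aMSCs P2 and yMSCs P2, and array 2 of aMSCs P100 was lowest for all but Smtn, for which it was highest. In the order of the 6 group means, neighbours overlapped in 1 of 5 places for Actg2 and in 4 of 5 for Des and for Smtn. Over the 18 arrays, the named genes whose log2 signal ran most like a member's were chosen by the highest Pearson correlation, as a description in which the points share passage and array background. For Actg2 they were C1qtnf2 (r = 0.976), Gda, Ctsk, which encodes cathepsin K (0.974), and Lmcd1. For Myl9 they were Rasl11b (r = 0.977), Edn1, the endothelin gene, Spink8 and Atp6v1e1. For Cnn1 they were Qsox1 (r = 0.958), Ppp1r14a (0.947), Acta1 (0.947) and As3mt.

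Genes that regulate contraction were mixed. Of 11 tested, 1 was higher and 6 lower in aMSCs P100 than in aMSCs P2, and 1 higher and 4 lower in yMSCs. Over all genes 19.1% were higher and 18.6% lower in aMSCs, and 20.6% and 18.7% in yMSCs. Median changes were −0.64 in aMSCs and −0.55 in yMSCs (0.03 and 0.06 for all genes). Ppp1r14a encodes CPI-17, an inhibitor of myosin phosphatase. In aMSCs its signal was 10.80, 11.05 and 11.28 at P2, 11.14, 11.18 and 10.55 at P30 and 5.89, 5.49 and 6.66 at P100. In yMSCs it was 10.74, 10.74 and 10.53 at P2, 6.54, 7.53 and 7.45 at P30, and was not detected at P100. At P30 the aMSCs arrays thus reached into their P2 range, while the yMSCs arrays all lay below theirs. The log2 difference between the changes to P30 was 3.41 (SE 0.40, adjusted p = 2.32e-05), and P100 was at least 38.2-fold below P2 in yMSCs (adjusted p = 1.60e-11). Kcnmb1, the beta subunit of the calcium-activated potassium channel of smooth muscle, averaged 9.12 in aMSCs P30 and 5.88 in yMSCs P30 (log2 3.24, SE 0.35, adjusted p = 4.37e-06), and its changes to P30 also differed (2.37, adjusted p = 0.00437). The list as a whole was mixed in this interaction term, with 3 of 11 higher and 2 lower (median −0.45), where 5.81% and 5.97% of all genes were. In aMSCs P30 against yMSCs P30, 4 of the 11 were higher and 1 lower (median −0.15), where 8.12% and 9.53% of all genes were. Rock1, a kinase that inhibits myosin phosphatase, was 1.84-fold lower (adjusted p = 0.0209, detected on 1 of 3 P100 arrays) and Cacna1c, a subunit of the L-type calcium channel, 1.72-fold higher (adjusted p = 0.00841) in yMSCs P100 than in yMSCs P2.

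**Figure D4:**
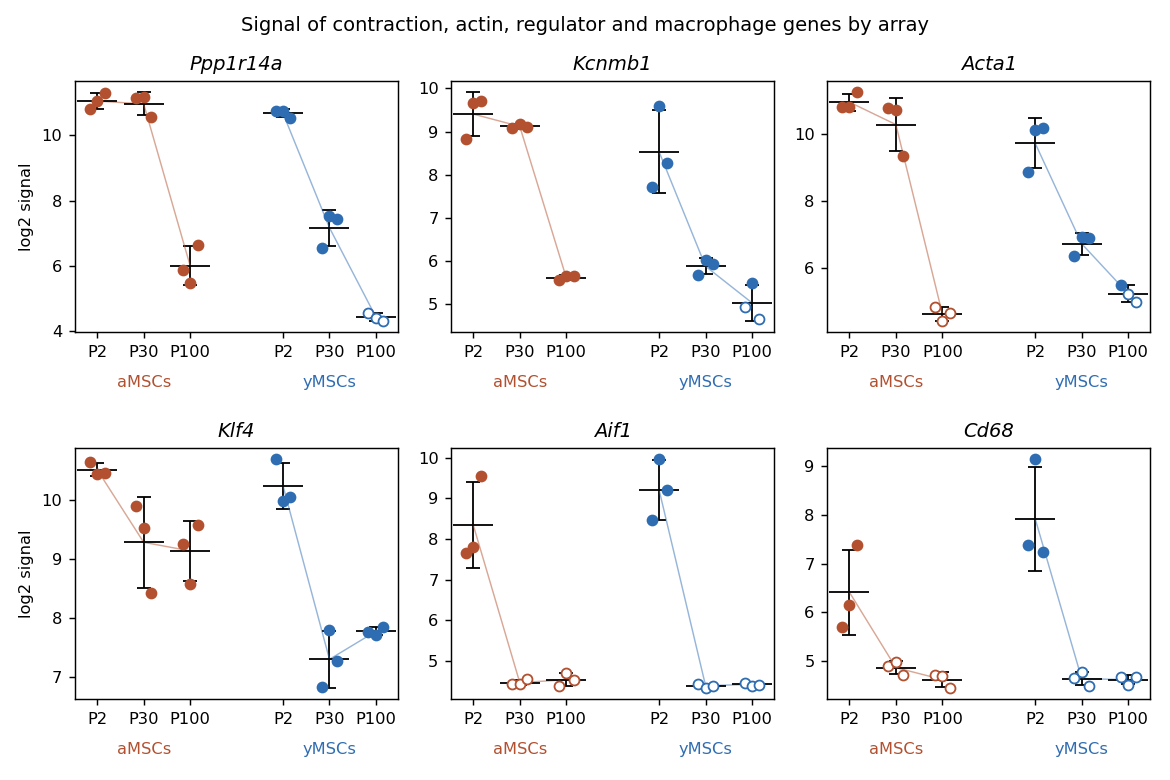
Log2 signal (vertical axis) on each array of Ppp1r14a and Kcnmb1 (contraction regulators), Acta1 (skeletal actin), Klf4 (a repressor of contractile genes) and the macrophage markers Aif1 and Cd68, by passage, aMSCs in red and yMSCs in blue, with mean and SD of 3 arrays; open points were not detected. Ppp1r14a, Kcnmb1 and Acta1 stay high at P30 in aMSCs and are low at P30 in yMSCs.

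Of 9 regulators in the SRF pathway that were tested, 0 were higher and 3 lower at P100 than at P2 in aMSCs, and 0 higher and 2 lower in yMSCs, with median changes of −0.50 and 0.10. Over all genes 19.1% were higher and 18.6% lower in aMSCs, and 20.6% and 18.7% in yMSCs, so that the share lower in yMSCs was close to that of all genes. Klf4, a repressor of smooth muscle genes, was among those that fell: it was 5.51-fold lower in yMSCs P100 than in yMSCs P2 (log2 −2.46, SE 0.33, adjusted p = 1.17e-05), and 2.57-fold higher in aMSCs P100 than in yMSCs P100 (adjusted p = 0.00595). Fhl2, a LIM protein that binds SRF, was 1.80-fold lower in yMSCs P100 than in yMSCs P2, and Csrp2, a LIM protein of smooth muscle, was 5.65-fold lower in aMSCs P100 than in yMSCs P100 (adjusted p = 3.05e-05). Srf and Myocd, picked after their values were seen, stayed detected in each group. Srf changed by −0.08 in aMSCs (adjusted p = 0.663) and 0.35 in yMSCs (adjusted p = 0.0352) between P2 and P100, under 1.5-fold. Myocd, the gene of myocardin, fell by 0.88 on the log2 scale between P2 and P100 in aMSCs (adjusted p = 0.00299) and differed by 0.10 in yMSCs (adjusted p = 0.717). In between it had risen: at P30 Myocd was 0.61 above P2 in aMSCs (adjusted p = 0.0263) and 1.01 above it in yMSCs (adjusted p = 0.00132). At P2 Myocd was also higher in aMSCs than in yMSCs (log2 1.201, adjusted p = 0.00219).

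Partners of the thin filament and dense body numbered 9 tested, with 1 higher and 4 lower in aMSCs and 0 higher and 2 lower in yMSCs at P100 against P2 (median −0.10 and 0.34). Over all genes 19.1% were higher and 18.6% lower in aMSCs, and 20.6% and 18.7% in yMSCs, so that the share lower in yMSCs was close to that of all genes. Pdlim3, an actinin-binding LIM protein, fell out of detection in yMSCs P100, at least 1.45-fold below yMSCs P2, where 2 of 3 arrays detected it. Itga8, an integrin subunit, was called lower there (−0.64, adjusted p = 0.00625), but within this comparison it was detected on 1 array only, of yMSCs P2. It entered the test through its detection in aMSCs P2. Svil, the actin-binding supervillin, was 7.96-fold higher in aMSCs P100 than in yMSCs P100 (log2 2.99, SE 0.28, adjusted p = 5.12e-07), and Tns1, a focal adhesion protein, was 1.87-fold lower. Of 6 non-muscle counterparts, 1 was higher and 0 lower in aMSCs P100 than in aMSCs P2, and 2 higher and 0 lower in yMSCs (median −0.23 and 0.50). With 19.1% and 20.6% of all genes higher, the share higher in aMSCs was close to that of all genes. Myh10, a non-muscle myosin heavy chain, was 1.97-fold higher in yMSCs P100 than in yMSCs P2 and 1.75-fold higher again in aMSCs P100 than in yMSCs P100. Tpm3, another tropomyosin, was called higher in yMSCs P100 than in yMSCs P2 (log2 1.21, with 1 of 3 P2 arrays detected), and in aMSCs P100 it was not detected and at least 1.99-fold lower than in yMSCs P100.

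Striated muscle genes were few. Of 22 on the array 7 were tested, and 2 were higher and 1 lower at P100 than at P2 in aMSCs, and 1 higher and 3 lower in yMSCs (median 0.23 and −0.00), against 19.1% higher and 18.6% lower of all genes in aMSCs and 20.6% and 18.7% in yMSCs. In aMSCs P30 against yMSCs P30, 2 of the 7 were higher and 1 lower (median 0.09), where 8.12% and 9.53% of all genes were. Acta1 averaged 10.27 in aMSCs P30 and 6.73 in yMSCs P30 (log2 3.55, SE 0.36, adjusted p = 2.04e-06). At P100 it was not detected in aMSCs, at least 57.3-fold below aMSCs P2, and was detected on 1 of 3 arrays in yMSCs, 22.3-fold below yMSCs P2. Tnnt2, cardiac troponin T, fell 6.19-fold between P2 and P100 in yMSCs, and Actn2, sarcomeric actinin, was not detected in yMSCs P100, at least 1.27-fold below yMSCs P2. Tnnc1, the troponin C of slow and cardiac muscle, ran the other way, 17.1-fold higher in yMSCs P100 than in yMSCs P2 (log2 4.09, SE 0.38, adjusted p = 1.69e-07) and 4.73-fold lower in aMSCs P100 than in yMSCs P100. At P30, unlike Acta1, Tnnc1 was also lower in aMSCs, at 8.55, 8.36 and 7.75, against 11.98, 12.75 and 12.16 in yMSCs. Tnnt3, fast troponin T, was at least 1.80-fold higher in aMSCs P100 than in yMSCs P100.

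Markers of the stromal and perivascular compartment changed as well. Of 8 MSC markers tested, 2 were higher and 4 lower in aMSCs P100 than in aMSCs P2, and 1 higher and 2 lower in yMSCs. Over all genes 19.1% were higher and 18.6% lower in aMSCs, and 20.6% and 18.7% in yMSCs. The step to P30 was more one-sided in aMSCs, with 0 higher and 7 lower (median −1.38, where 20% of all genes were lower). In yMSCs this step had 1 higher and 2 lower, where 16.4% of all genes were higher and 16.4% lower. In the interaction to P30, 4 of the 8 were called lower (median −1.18, where 5.97% of all genes were). These markers thus moved at the same step at which Cnn1 and Smtn differed between donor ages, and their part in that was not tested. Cxcl12, a chemokine of marrow stroma, fell 11.3-fold and Nt5e, or CD73, 9.74-fold in yMSCs P100 against yMSCs P2, with Nt5e detected on 2 of 3 P100 arrays, while Alcam was 1.64-fold higher. At P100 Cxcl12 was 5.80-fold higher, Pdgfra 3.39-fold higher, Vcam1 at least 4.42-fold higher and Alcam 4.50-fold lower in aMSCs than in yMSCs. Of 5 pericyte markers tested, 0 were higher and 3 lower at P100 than at P2 in each donor age, against the same shares of all genes as for the MSC markers. Anpep, or CD13, was at least 8.34-fold, Mcam at least 2.21-fold and Abcc9 1.57-fold lower in yMSCs P100 than in yMSCs P2, and Anpep was at least 2.58-fold higher in aMSCs P100 than in yMSCs P100. Of 6 macrophage markers tested, 0 were higher at P100 than at P2 in either donor age. Lower were 4 in aMSCs and 5 in yMSCs, where 18.6% and 18.7% of all genes were. Cd68 was at least 5.67-fold, C1qc at least 2.85-fold and C1qa at least 1.65-fold lower in yMSCs P100 than in yMSCs P2. In aMSCs P100 against yMSCs P100 none of the 6 was called by limma, Cd14 differing by −0.35 (adjusted p = 0.242) and Cd68 being undetected in both. The endothelial marker Tie1 differed by 0.48 between yMSCs P100 and yMSCs P2 and by −0.34 between aMSCs P100 and yMSCs P100, neither reaching 1.5-fold.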

How the data were processed

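Total RNA of 18 rat MSC samples (6 groups, 3 arrays each) was measured on BeadChips. The deposited table holds scanner intensities with a detection p-value for each probe, neither background-corrected nor normalised by the authors. A second deposited table holds intensities that the authors background-subtracted and normalised with the rank invariant method of BeadStudio 3; on each array they follow a straight line of the first table's values, except for 70 probes that could not be paired and were left unnamed, and they were used as an alternative. Starting from the first table, neqc of limma 3.58.1 (R 4.3.3) was applied (normexp by detection p-value, offset 16, quantile), with the brightest probe taken per gene. Genes with a mean detection p-value of at most 0.01 in at least 1 group (9531, of which 6837 named) were fitted with 6 group means, moderated by eBayes (12 residual and 4.51 prior degrees of freedom) and adjusted by Benjamini-Hochberg over all of them. Probes were named through the platform annotation; 13131 symbols matched RefSeq. The fit was run on simulated data with noise independent between arrays and no detection floor or passage-linked background. That run therefore cannot show how the fit fares with those features of these arrays. The genes named from each list are the 2 lowest and 2 highest called in yMSCs P100 against P2 and in aMSCs P100 against yMSCs P100, or the 2 brightest where none was called; like-running genes, planned for Acta2 and Myh11, were given for other members instead. Members and lists were chosen with earlier results of these data known. Alternatives changed background, normalization, filter, fold, samples and arrays. Sequences are from RefSeq (GRCr8).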

Additional observations from a re-analysis of the deposited data

Results flagged for a closer look

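The following 5 interaction terms passed the threshold for a change with passage that differed between aMSCs and yMSCs. Donor age and culture line cannot be told apart in them. Only the Tpm1 term was called under each of the 29 alternative settings. To P100, the Actg2 term was lost in 8 of them and the Smtn term in 6. On the log2 scale the change to P30 in aMSCs minus that in yMSCs was 1.52 for Cnn1 (adjusted p = 0.00637) and 1.66 for Smtn (adjusted p = 0.0186). The change to P100 in aMSCs minus that in yMSCs was −1.34 for Tpm1 (adjusted p = 0.00246), 1.42 for Actg2 (adjusted p = 0.0300) and 1.5 for Smtn (adjusted p = 0.0263). Both Smtn terms hold a large part from P2: aMSCs minus yMSCs was −0.97 at P2, 0.69 at P30 and 0.53 at P100, none of them called. Tpm1 moved in opposite directions, with all 3 P100 arrays below the P2 arrays in aMSCs and all 3 above them in yMSCs. Taken singly, its fall in aMSCs was lost in 3 of the settings and its rise in yMSCs in 6. Groups of 3 arrays are too small for a test of single outlying arrays.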

How the results depend on the processing

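Over 29 alternative settings, 18 of them leaving out 1 array, the 36 member differences called gave 1044 values, of which 1010 were still called, 34 were not and 0 turned in direction. Values of members that were not called turned sign in 38 of 870 cases and passed the test in 26. The falls of Actg2 and Myl9 between passages and both P100 differences between donor ages were called under each setting. With no filter on dim genes, which raises the number of genes tested, 1 member was called for the difference between the changes to P30 and 1 for that to P100, where 2 and 3 were in the filtered fit. In aMSCs P2 against yMSCs P2, 1 member was called with only these groups fitted and 2 with array weights, against 0. Without arrays 1 and 2 of aMSCs P30, which leaves 1 array in that group, 1 member was called in aMSCs P30 against yMSCs P30 and 0 for the difference between the changes to P30. Leaving out 1 array at a time gave 0 to 1 members called in aMSCs P2 against yMSCs P2, 1 to 3 for the difference between the changes to P30 and 1 to 3 for that to P100; the cause was not tested. With an offset of 50 Des missed the fold threshold in yMSCs P30 against yMSCs P2 (−0.56). With a fold of at least 2 the 4 changes of Tpm1 under that size were not called. The replicate numbers did not pair the arrays: deviations of same-numbered arrays correlated at −0.72 to 0.57 (median −0.01, 45 pairs), and 4 of 18 arrays resembled most an array of their own number in another group. Array weights also called Des in aMSCs P100 against yMSCs P100 (0.79) and Smtn in aMSCs P30 against yMSCs P30 (1.29). With the replicate number as a block the count of members called stayed at 5, 4, 3, 5, 5, 5, 0, 2, 2, 2 and 3 over the 11 comparisons. No member had another probe to try. Des lies near the detection limit, so its P30 level has only an upper bound.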
